A study of Zea mays subsp. mays with 2 samples.

Results

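The 897 loci described here are long transcribed regions of maize seedlings: loci on chromosomes 1 to 10 whose listed position belonged to no other locus and whose span, the end minus the start, exceeded 20000 bases. The rule uses position and span and no levels, but it was set with earlier results of these data known. The loci made up 3.02% of the 29674 loci listed and 3.66% of the 24534 loci on these chromosomes with a position of their own. The plants were maize B73, the inbred line behind the reference genome, with no mutation or treatment named in the labels. Shoots and roots were collected separately 14 days after germination, and the polyadenylated RNA of each organ was sequenced as 1 paired-end library. The labels do not say how many plants entered a library. With 1 library per organ there is no spread between replicates, so every difference below compares these 2 libraries and no p-value was computed.

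Most of the maize genome is made of transposable elements, and many of these lie inside genes. Introns that hold such insertions can stretch a gene over a long stretch of chromosome while its mature, spliced transcript stays short. Splicing removes the introns, and poly(A) selection enriches mature transcripts, so the span of a locus says little about the length of the RNA sequenced from it. The series concerns noncoding RNAs of maize, but the table does not mark loci as coding or noncoding. It gives neither gene names, exons nor strand. None of its locus numbers matched the gene table at hand, with 0 matches, so the loci are given by their coordinates on B73 RefGen_v2.

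Levels are FPKM, fragment numbers divided by transcript length and by library size, so levels of different loci are compared per length. The table lists loci above 1 FPKM in at least 1 organ, and the smallest value of the higher organ was 1.00022 FPKM. Total counts are not in the table and transcript lengths are not given, so the number of fragments behind a value could not be estimated for loci with introns. Values near 0 are therefore of unknown precision. As a check of the organ labels, each of the 15 listed plastid loci measured more in shoot, with organ sums of 328 and 11.4 FPKM.

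The long loci ranged from 20023 to 456314 bases, with a median of 30181 and quartiles of 23632 and 45146. The median over all single loci was 3192 bases. Of the 897 loci, 453 spanned more than 30000 bases and 31 more than 100000. The 5 longest spanned from 200642 bases upward. The spans of all 897 added up to 36.1 Mb, or 22.0% of the length covered by all listed positions on the 10 chromosomes. The loci beside the limit give an impression of the values there. The 3 loci just above it, with spans of 20023, 20035 and 20038 bases, were at 69.0, 4.04 and 18.1 FPKM in shoot; in root they measured 66.2, 4.09 and 20.3 FPKM. The 3 loci just below it, with spans of 19956, 19943 and 19938 bases, were at 24.1, 105 and 16.2 FPKM in shoot; in root they measured 22.5, 56.4 and 19.7 FPKM.

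The longest of the 897 was also among the most abundant. It lay on chromosome 8, at chr8:73231994-73688308, spanned 456314 bases and was at 967 in shoot and 1141 FPKM in root. The next was chr2:115063501-115358073, with 76.5 in shoot and 95.1 FPKM in root. The third, chr10:16655539-16929745, was at 24.4 in shoot and 25.2 FPKM in root. Between the organs these 3 loci differed by 1.18-fold, 1.24-fold and 1.03-fold. The other two of the 5 longest loci were higher in shoot by 2.56-fold and 1.89-fold. Of these, chr1:245272989-245492335 was at 54.6 in shoot and 21.3 FPKM in root, and chr2:196533549-196734191 was at 6.53 and 3.45 FPKM.

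No long locus overlapped another listed position, and neither did any of the 26802 positions listed on the 10 chromosomes, with 0 overlaps in all. Loci listed with a shared position were not members, and the sources used here do not say whether such loci lie over each other. Locus numbers ran along each chromosome 3 times, and the sources used here do not say what the runs stand for. The first run held 462 long loci and the second 433, while the third run held 2 long loci, or 0.223% of the members against 10.9% of all loci on these chromosomes. In their own run, 633 of the 897 long loci (70.6%) carried numbers consecutive with both listed neighbours, so no unlisted number lay beside them there. Over all 3 runs, 68 long loci lay at a place where no number was missing on either side. At 819 others at least 1 unlisted number could lie within or beside the span, and 10 at the ends of a run could not be placed. Whether unlisted loci contribute to a span was not tested.

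Long loci were transcribed at a higher median level than loci at large. In shoot the median was 16.2 FPKM (quartiles 7.51 and 30.4). In root it was 15.2 FPKM (quartiles 6.04 and 29.6). All listed loci had medians of 9.84 in shoot and 9.19 FPKM in root. Long loci were concentrated at middle levels. They reached 100 FPKM in shoot in 4.46% of cases and in root in 4.35%, against 6.21% and 6.51% of all loci. Loci of 10001 to 20000 bases were similar, with 70 of 1676 reaching 100 FPKM in shoot and 68 in root. The low share therefore did not set the long loci apart from their nearest neighbours in span. Sorted into 10 equal classes by the mean level of all loci on the chromosomes, 592 of the long loci (66.0%) fell into the upper 5 classes, but 71 into the highest class and 35 into the lowest.

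The level did not depend much on the span from 5001 to 100000 bases. For loci of 1 to 300 bases the shoot median was 19.9 FPKM and the root median 17.6 FPKM, above those of the long classes up to 100000 bases. Loci of 301 to 1000 bases had a median of 4.09 FPKM in shoot, loci of 2001 to 5000 bases 10.6 FPKM, loci of 5001 to 10000 bases 16.1 FPKM and loci of 10001 to 20000 bases 16.5 FPKM. Among the long loci, the shoot median was 15.2 FPKM at 20001 to 30000 bases, 16.2 FPKM at 30001 to 60000 bases and 17.5 FPKM at 60001 to 100000 bases. The root medians of these 3 classes were 13.8, 15.3 and 15.2 FPKM. The 31 loci above 100000 bases had higher medians, at 40.5 in shoot and 61.7 FPKM in root, and 12 of them reached 100 FPKM in at least 1 organ. Across the 897 loci, span and mean level had a Spearman coefficient of 0.11, given as a description, since all loci share the same libraries.

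**Figure D1:**
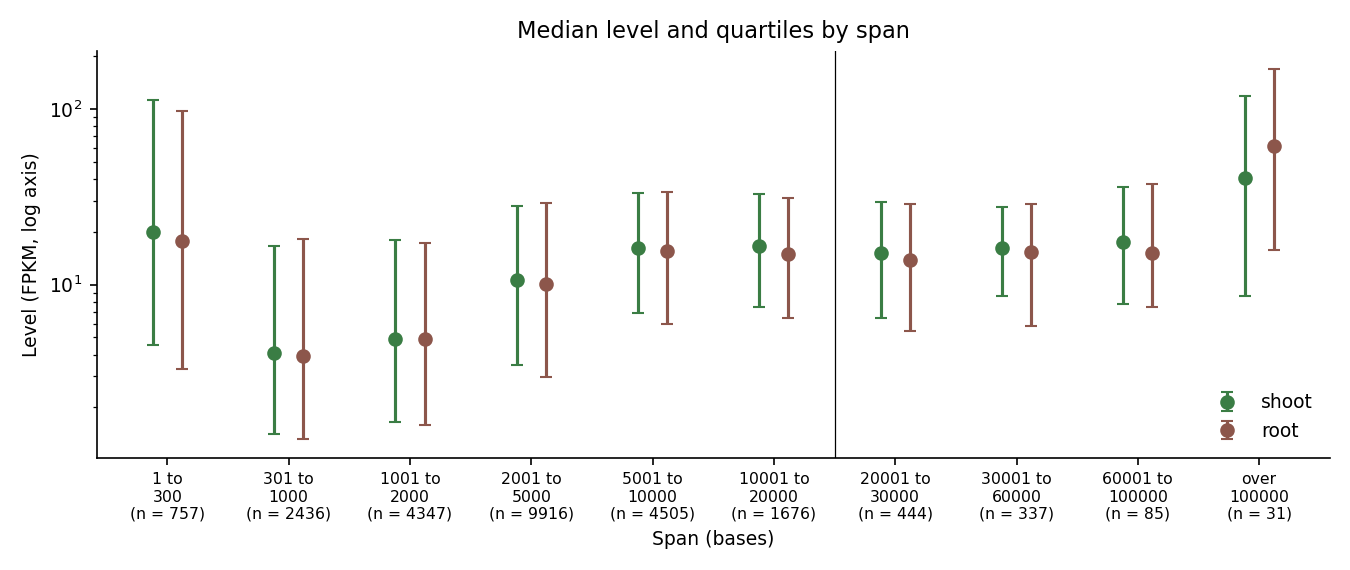
Median level in FPKM (log axis) of single loci in shoot and root by span in bases, with bars from the first to the third quartile over loci; the vertical line marks 20000 bases. Medians stay near 15 FPKM from 5001 bases up to 100000 bases, and the 31 loci above 100000 bases are higher, at 40.5 in shoot and 61.7 FPKM in root.

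The most abundant long loci were abundant in both organs. The highest, chr5:52232756-52266127, was at 3639 in shoot and 4588 FPKM in root. The second, chr9:140718203-140772636, was at 3206 in shoot and 2833 FPKM in root. Together they held 21.0% of the summed FPKM of the long loci in shoot and 22.4% in root. The 456314-base locus on chromosome 8 ranked next in both organs. The locus chr3:59403067-59475338 was at 660 in shoot and 869 FPKM in root. In shoot the fourth place belonged to chr1:67784203-67827791, with 698 FPKM against 527 FPKM in root, and in root the fifth place belonged to chr1:261090152-261132868, with 533 FPKM against 319 FPKM in shoot. None of these 6 loci reached a 2-fold difference. All long loci together made up 1.50% of the summed FPKM of the shoot library and 1.65% of the root library.

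Most long loci were detected in both organs. At a detection level of 1 FPKM, 840 (93.6%) were present in both, 34 (3.79%) in shoot but not root and 23 (2.56%) in root but not shoot. For all listed loci these shares were 83.3%, 10.3% and 6.48%. The share in both was 93.4% for loci of 10001 to 20000 bases, so it did not set the long loci apart from their nearest neighbours in span. The 34 loci in shoot alone had a median of 3.10 FPKM there, and 13 of them stayed under 2 FPKM. The 23 in root alone had a median of 2.25 FPKM, and 9 stayed under 2 FPKM. One long locus, chr1:155996877-156029666, was listed at 0 in shoot and at 2.26 FPKM in root, and 0 long loci were listed at 0 in root.

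Levels in the organs lay close together. The log2 ratio used from here on is log2((root FPKM + 1) / (shoot FPKM + 1)); the added 1 compresses differences at low levels. Its median over the long loci was 0.043, with quartiles of -0.31 and 0.28, against a median of 0.061 and quartiles of -0.48 and 0.51 over all listed loci. The sign of the median rests on the scaling, since it was -0.054 when root values were divided by the median root to shoot ratio of loci reaching 1 FPKM in both. The distance between the quartiles was 0.59 for long loci and 0.98 for all loci. It was 0.60 for loci of 10001 to 20000 bases and 1.49 for loci of 1001 to 2000 bases. A difference of less than 2-fold was found at 756 long loci (84.3%), compared with 73.2% of all loci and 84.8% of loci of 10001 to 20000 bases. Across the 897 loci, log2(FPKM + 1) in shoot and root had a Pearson coefficient of 0.80, and the Spearman coefficient of the levels was 0.81. Both coefficients were 0.76 over all listed loci. Loci are not independent replicates.

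A locus was called higher in an organ when the log2 ratio reached 2, or 4-fold. Among the long loci, 55 (6.13%) were higher in shoot, beside 6.79% of all loci listed, and 9 (1.0%) were higher in root, beside 3.52% of all loci. At 4-fold the shoot share was thus near the background and the root share below it, which did not hold at every fold. Root took 14.1% of the calls among long loci and 34.2% among all loci. At 2-fold, 104 long loci were called toward shoot and 37 toward root, beside 15.0% and 11.9% of all loci, or 11.6% and 4.12% of the members. At 8-fold, 21 were higher in shoot and 3 in root, beside 3.50% and 1.28% of all loci, or 2.34% and 0.334% of the members. At 16-fold, 9 were higher in shoot and 3 in root, beside 1.90% and 0.543%, or 1.0% and 0.334% of the members. At 32-fold, 5 (0.557%) were higher in shoot and 2 (0.223%) in root, beside 1.08% and 0.219% of all loci. At 2-fold and from 8-fold up the shoot share too lay below the background, and at 32-fold the root share was at it. No test of the difference between long loci and the rest was made, and each share describes this pair of libraries.

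**Figure D2:**
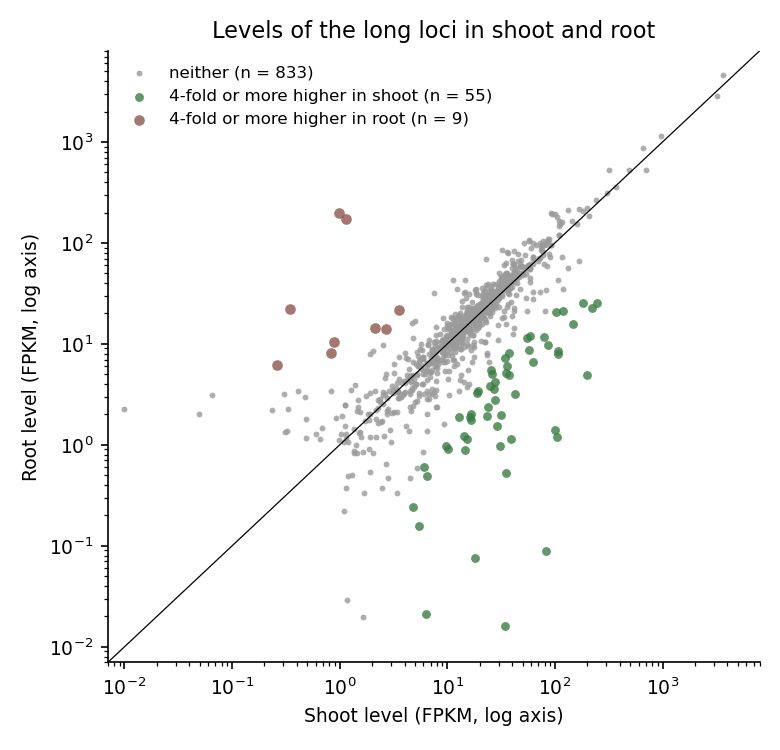
Each point is 1 of the 897 long loci, with its shoot level on the x axis and its root level on the y axis, both in FPKM on log axes; the line marks equal levels, and the locus listed at 0 in shoot is drawn at 0.01 FPKM. The 55 loci higher in shoot form a broad band below the line, and the 9 higher in root are scattered above it, 2 of them at more than 100 FPKM.

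Root-biased loci became scarcer with span above 2000 bases, well before 20000 bases. They made up 6.21% of loci of 1 to 300 bases, 6.12% at 301 to 1000 bases and 7.82% at 1001 to 2000 bases, 3.13% at 2001 to 5000 bases, 1.07% at 5001 to 10000 bases and 0.776% at 10001 to 20000 bases. Among the long loci, 2 of 444 were root-biased at 20001 to 30000 bases (0.450%), 3 of 337 at 30001 to 60000 bases (0.890%) and 1 of 85 at 60001 to 100000 bases (1.18%). Shoot-biased loci went from 12.5% at 1 to 300 bases and 9.85% at 1001 to 2000 bases to 5.22% at 5001 to 10000 bases, 6.31% at 20001 to 30000 bases and 4.71% at 60001 to 100000 bases. The scarcity of root-biased loci was therefore shared by all classes from 5001 to 100000 bases. It did not extend to the longest loci, since 3 of the 31 loci above 100000 bases were root-biased (9.68%) and 2 were shoot-biased (6.45%). At 100000 bases or less, 6 of 866 long loci were root-biased (0.693%) and 53 shoot-biased (6.12%).

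**Figure D3:**
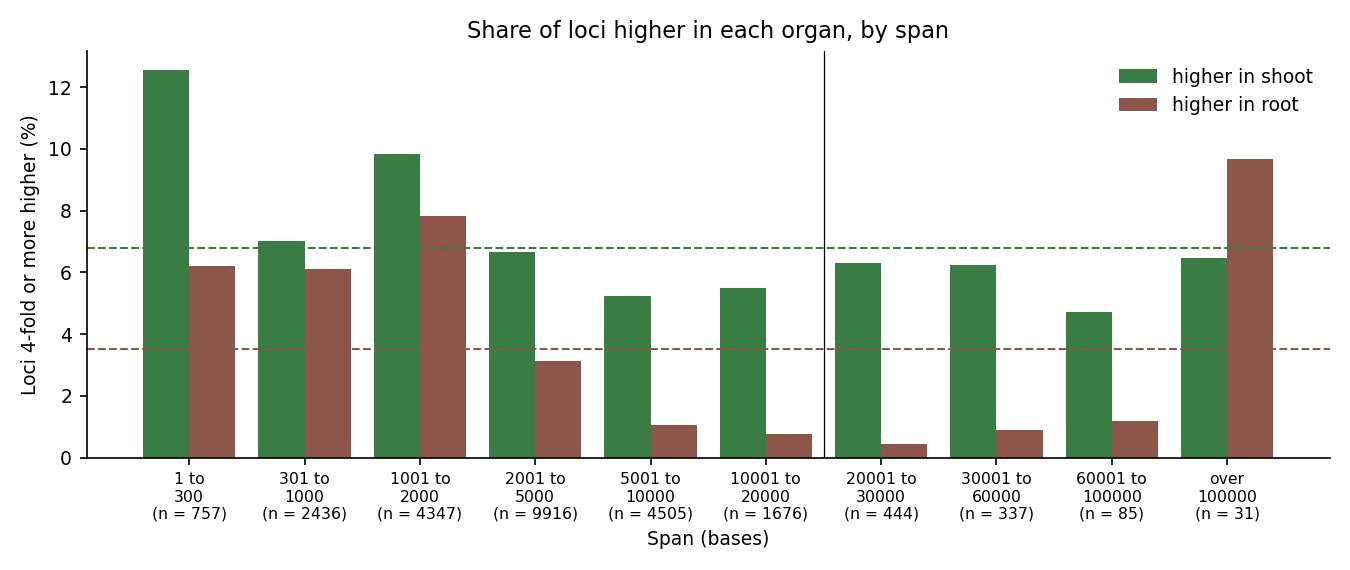
Percentage of single loci called 4-fold or more higher in shoot or in root on the log2(FPKM + 1) scale, by span in bases; dashed lines give the share over all listed loci, 6.79% for shoot and 3.52% for root, and the vertical line marks 20000 bases. The root bars drop from 7.82% at 1001 to 2000 bases to about 1% from 5001 to 100000 bases, and stand at 9.68% for the 31 longest loci, which is 3 loci.

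Level also varied with span, so the calls were also set out by level. In the 10 classes by mean level, the share higher in root was set beside that of all shorter single loci, of 20000 bases or less. It was lower for long loci in each of the 9 classes that held any root call. Loci of 10001 to 20000 bases, of which 0.776% were higher in root over all levels, were not set apart by level. In the seventh, eighth and ninth classes, with mean levels from 15.2 to 67.6 FPKM, 0 of 399 long loci were higher in root. Among shorter loci 245 of 7175 (3.41%) were. These classes are pooled here because each held 0 root-biased long loci, so the 0 follows from the choice. In shoot 27 of the 399 were higher, or 8.84%, 3.76% and 7.56% by class, against 7.63%, 7.33% and 8.22% of shorter loci. In the classes on either side, long loci did hold root calls. In the sixth class 2 of 122 long loci (1.64%) were higher in root, against 5.31% of shorter loci. In the tenth class 2 of 71 long loci (2.82%) were higher in root, against 4.08% of shorter loci. Over the upper 5 classes, 4 of 592 long loci (0.676%) were higher in root against 3.92% of shorter loci, and 6.76% were higher in shoot against 8.63%. The share higher in shoot was lower for long loci in 6 of the 9 classes and higher in the others. In the lowest class no locus of either kind could be called, since the pseudocount limits the ratio there.

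**Figure D4:**
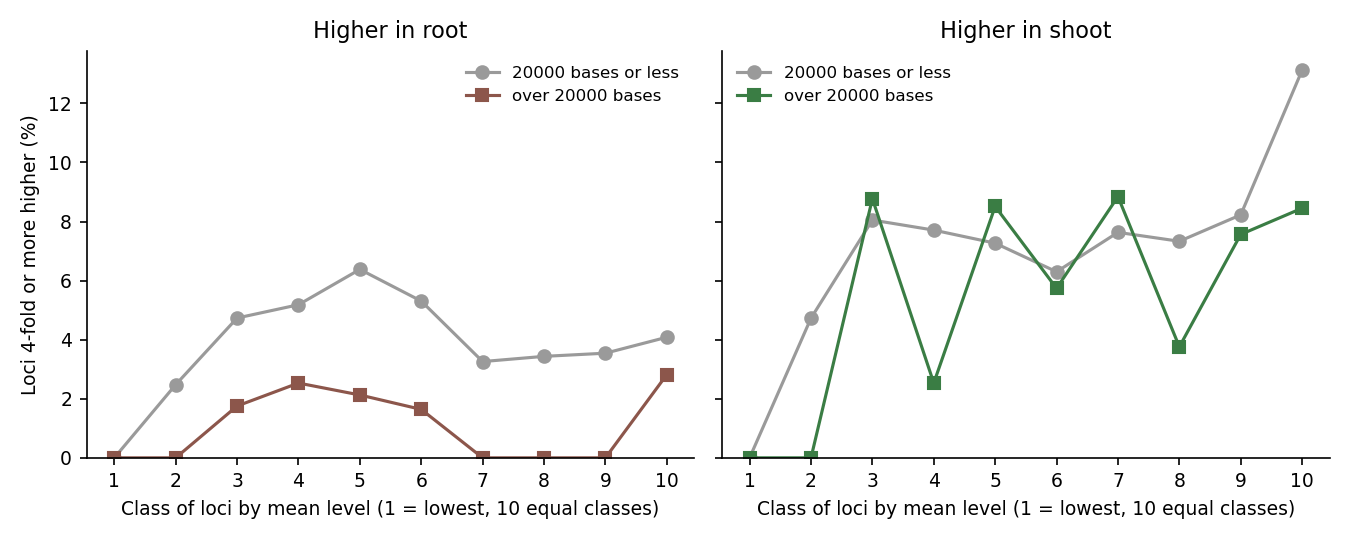
Percentage of single loci called 4-fold or more higher in root (left) and in shoot (right) on the log2(FPKM + 1) scale, in 10 equal classes of mean level, for loci over 20000 bases (squares) and of 20000 bases or less (circles). In root the squares lie below the circles from the second class on and are at 0 in the seventh to ninth; in shoot the lines cross.

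The 9 root-biased long loci lay on 5 chromosomes, and the 3 with the largest log2 ratios were also the 3 longest. XLOC_006919, at chr10:717205-895755, spanned 178550 bases and was at 199 in root and 0.982 FPKM in shoot, a log2 ratio of 6.66. XLOC_032666, at chr8:10989740-11106160, spanned 116420 bases and was at 171 in root and 1.13 FPKM in shoot, a log2 ratio of 6.34. The third, chr3:20940818-21090105, spanned 149287 bases and was at 22.2 in root and 0.343 FPKM in shoot, a log2 ratio of 4.11. Without the pseudocount, these were differences of 203-fold, 151-fold and 64.6-fold.

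The other 6 were lower and closer to the 4-fold limit, with log2 ratios of 2.03 to 2.60. The locus chr8:56567222-56591013 was at 10.5 in root and 0.885 FPKM in shoot. On chromosome 3, chr3:191413261-191496359 was at 8.16 in root and 0.839 FPKM in shoot. Another, chr6:52975480-53006781, was at 14.2 in root and 2.15 FPKM in shoot. These were differences of 11.8-fold, 9.73-fold and 6.62-fold without the pseudocount. The smallest log2 ratio of the 9, 2.03, belonged to chr10:61930742-61957242, at 14.1 in root and 2.68 FPKM in shoot. All 6 fell below the 4-fold limit with a pseudocount of 5.

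The remaining 2 root-biased loci were neighbours on chromosome 4, with no listed position between them. The first, chr4:189294033-189340644, was at 6.18 in root and 0.264 FPKM in shoot. The second began 26079 bases further on, at chr4:189366723-189408274, and was at 21.8 in root and 3.59 FPKM in shoot. Long loci followed each other directly in 38 cases, 29 of them with a gap of 100000 bases or less. In 1 of the 38 pairs both were higher in root, the pair just named, in 1 both were higher in shoot, and in 0 the directions were opposite. With so few long loci called, these counts cannot show whether neighbours share a direction. The shoot-biased pair also lay on chromosome 4. It joined chr4:192916338-193023762, at 184 in shoot and 25.3 FPKM in root, to chr4:193040990-193066181, at 4.81 and 0.240 FPKM, across a gap of 17228 bases.

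The 55 shoot-biased long loci were at 4.81 to 244 FPKM in shoot, with a median of 31.8, and at 0.0163 to 25.3 FPKM in root, with a median of 3.21. Without the pseudocount their differences had a median of 9.74-fold, and 42 of the 55 were still at 1 FPKM or more in root. In 11 of them the shoot level reached 100 FPKM. They occurred on all 10 chromosomes, from 3 on chromosomes 8 and 9 to 10 on chromosome 1. Their median span of 29525 bases was close to that of all long loci, and 2 of them exceeded 100000 bases.

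The largest log2 ratio toward shoot belonged to XLOC_038040, at chr9:134749982-134919022. It spanned 169040 bases and was at 82.5 in shoot and 0.0896 FPKM in root, a log2 ratio of -6.26. XLOC_003908, at chr1:221370575-221402913, followed with 104 in shoot and 1.20 FPKM in root, a log2 ratio of -5.58. The locus chr7:36622469-36647695 was at 101 in shoot and 1.40 FPKM in root. The last 2 had levels close to each other, and differed between the organs by 86.9-fold and 72.1-fold without the pseudocount.

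The next 3 differed more in level. The locus chr5:20050703-20098557 was at 34.5 in shoot and 0.0163 FPKM in root, the lowest root value of all long loci. The locus chr1:295106605-295189987 was at 196 in shoot and 4.91 FPKM in root, a 40.0-fold difference. The last of the 6, chr5:78255057-78317115, was at 35.1 in shoot and 0.524 FPKM in root, a 66.9-fold difference. For the first of these 3, the 2122-fold ratio without the pseudocount is the largest among the long loci above 0 in both organs, but its size rests on a root value close to 0.

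The long loci were spread over all chromosomes. Their share of single loci was lowest on chromosome 5, at 3.03%, and highest on chromosome 2, at 4.13%. Their density ran from 0.383 per Mb on chromosome 9 to 0.498 per Mb on chromosome 2. Chromosome length was taken as the end of the last listed locus. The spans covered from 1.43% of chromosome 9 to 2.26% of chromosome 10. The median level in shoot was lowest on chromosome 7, at 13.7 FPKM, and highest on chromosome 1, at 18.6 FPKM. Root-biased long loci were found on chromosomes 3, 4, 6, 8 and 10, with 1 on chromosome 6 and 2 on each of the others.

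Along the chromosomes, the long loci took a larger share in the interior than at the ends. Each chromosome was divided into 10 equal segments, which were pooled over the chromosomes. Long loci were 2.86% of the single loci in the first segment and 2.91% in the last, but 5.68% in the fourth and 6.84% in the fifth. In absolute number they were still most frequent near the ends, with 103 in the first segment, 131 in the last and 79 in the fifth, since 3606, 4503 and 1155 single loci lay in these segments. Loci of 10001 to 20000 bases varied less, from 5.90% in the ninth segment to 8.66% in the fifth. The share in the third to sixth segments exceeded that in the outermost pair on 9 of the 10 chromosomes. Chromosome 1 was the exception, with 3.22% inside and 3.79% at the ends. The third to sixth segments include the peak of the pooled shares, so this count is not independent of the pooled pattern. The seventh and eighth segments, also interior, were left out of it and had pooled shares of 3.35% and 3.41%. The difference between interior and ends was not tested.

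**Figure D5:**
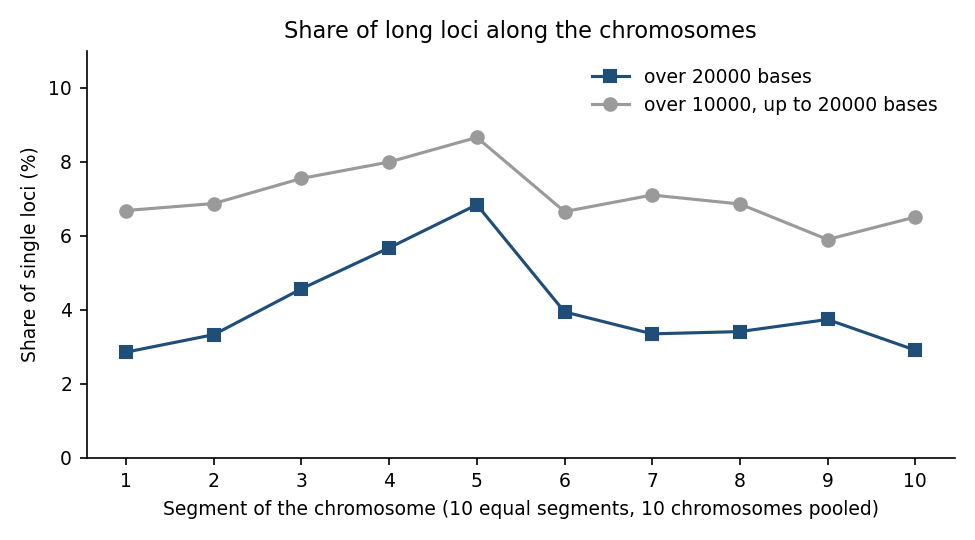
Percentage of single loci that span more than 20000 bases (squares) or 10001 to 20000 bases (circles), in 10 equal segments of the chromosome from its first to its last base, with the 10 chromosomes pooled. The share of long loci climbs from 2.86% in the first segment to 6.84% in the fifth and is 2.91% in the last.

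The levels of the long loci did not follow this pattern in the same way. The median of the mean FPKM of both organs was 21.0 in the first segment, 18.4 in the last, 14.6 in the fifth and lowest, at 12.2, in the second. The median span differed little, from 27575 bases in the first segment to 33145 in the third. Shoot-biased long loci were found in every segment, between 2 of 64 long loci in the sixth (3.13%) and 8 of 78 in the second (10.3%). Of the 9 root-biased loci, 3 lay in the first segment, which held 103 long loci. The share of all loci called in each segment was not computed, so these small counts do not show a preference for a place.

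Long loci had fewer listed neighbours than shorter ones. Within 500 kb on either side of the midpoint, the median number of other listed positions was 12 for long loci, with quartiles of 7 and 19, and 16 for shorter single loci, with quartiles of 10 and 22. For loci of 10001 to 20000 bases it was 14. The gap to the nearest listed position had a median of 26657 bases for long loci and 10104 bases for shorter ones. It exceeded 100000 bases at 127 long loci (14.2%), compared with 7.37% of shorter loci. Loci of 10001 to 20000 bases lay between, with a median gap of 17165 bases and 9.31% above 100000 bases. The 55 shoot-biased long loci also had a median of 12 neighbours, and the 9 root-biased ones a median of 9.

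Most windows of 1 Mb with a long locus held only 1, and no comparison with a random placement was made. Of the 722 windows of 1 Mb that held the start of a long locus, 569 held 1, 132 held 2, 20 held 3 and 1 held 4. The window with 4 lay between 210 and 211 Mb on chromosome 2, among 30 listed loci. Its members differed in level but little between the organs. The locus chr2:210036313-210060148 was at 10.3 in shoot and 9.83 FPKM in root, and chr2:210078411-210108782 was at 15.1 and 13.6 FPKM. The third, chr2:210355401-210376305, was at 1.93 in shoot and 3.23 FPKM in root. The fourth, chr2:210497743-210532196, was at 85.0 and 58.9 FPKM. None of the 4 reached a 2-fold difference.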

How the data were processed

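Polyadenylated RNA of maize B73 shoots and roots, 1 library each, was sequenced paired-end without a record of strand, per the labels' protocols. The deposited values are FPKM per assembled locus. Per the submitters' processing notes, the tools were TopHat, Cufflinks and Cuffdiff, without versions; settings and scaling between libraries are likewise not given in the sources used here. Per the file headers, positions refer to B73 RefGen_v2. Both sample columns were matched by name.

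From the deposited FPKM, span, log2 ratio with a pseudocount of 1, calls at 4-fold, detection at 1 FPKM, gaps and places were computed with scipy 1.17.1, numpy 2.4.6 and pandas 2.3.3 under Python 3.11.15, and drawn with matplotlib 3.10.9. Calling and overlap search were run on simulated data as a check of the code. The planted changes were 8-fold and at loci of higher level, so calls at low levels were not checked. No statistical test fits 1 library per organ, and the depth is unknown. Members, span classes and the naming rule were chosen with earlier results of these data known. Named are the longest and most abundant loci, those with the largest log2 ratios, all 9 root-biased loci, the loci beside the span limit and the densest 1 Mb window; 20 windows tied for the next place and are not described. The shoot-biased pair on chromosome 4 and the locus listed at 0 were chosen after their values were seen. Alternatives were other pseudocounts, thresholds, scalings, spans and filters. Sequences of the loci were not used here.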

Additional observations from a re-analysis of the deposited data

How the results depend on the processing

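More long loci were higher in shoot than in root under every alternative run. The same direction held for all listed loci under each pseudocount, scaling and threshold, so it is not particular to the long loci. A pseudocount of 0.1 gave 66 (7.36%) higher in shoot and 19 (2.12%) in root, beside 10.9% and 6.38% of all loci. A pseudocount of 5 gave 27 (3.01%) and 3 (0.334%), beside 3.61% and 1.40%. With either pseudocount, both shares of the long loci lay below those of all loci. The 2-fold threshold gave 104 and 37, and the 8-fold threshold 21 and 3. Spans above 15000 bases gave 85 (5.99%) and 12 (0.846%) of 1419 loci, with 1328 detected in both organs. Spans above 30000 gave 27 (5.96%) and 7 (1.55%) of 453, with 428 in both. With loci that share a position included, 111 (6.39%) and 28 (1.61%) of 1737 were called, 1527 were in both organs and the median log2 ratio was -0.027. The shares over all loci by the same 4-fold rule were 6.79% and 3.52%. Dividing root by 1.07 gave 56 (6.24%) and 8 (0.892%) calls, beside 7.06% and 3.22% of all loci. Rescaling each library to 1000000 gave 40 (4.46%) and 6 (0.669%), beside 4.90% and 2.73%. Dividing root by 1.07 gave a median of -0.054, and rescaling each library to 1000000 gave 0.13. The median of all loci went from 0.061 to -0.030 and 0.14. Without missing locus numbers, chosen after seeing the data, 3 (4.41%) and 0 of 68 loci were called, beside 6.79% and 3.52% of all loci. Of the 68, 66 were in both organs. The filter on mean level, spans of 100000 or less (also chosen afterwards) and other detection levels stayed within 1.5 times of the counts reported. No member overlapped another locus, so that alternative changed no value. Of 25 named loci, 15 were called, of which 6 root-biased ones lost the call under at least 1 alternative and 0 changed direction. Of the uncalled ones, 1 changed sign, chr10:16655539-16929745, from 0.043 to -0.055 with root divided by 1.07. No paired analysis was possible because each organ has 1 library, and none could be left out.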

Other observations

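Loci longer than 20000 bases that shared their position with another locus were outside the rule. There were 840 of them at 310 positions, the longest of 554172 bases. Their median level was 9.09 FPKM in shoot, where long loci with a position of their own had 16.2, and 7.25 FPKM in root, where the latter had 15.2. By the 4-fold rule, 56 of them (6.67%) were called toward shoot and 19 (2.26%) toward root, and 687 (81.8%) reached 1 FPKM in both organs. The span in these cases belongs to the shared position, so it is not known to be that of each locus.

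Among loci outside the 10 chromosomes, 0 of 15 plastid, 0 of 14 mitochondrial and 0 of 18 unplaced loci spanned more than 20000 bases.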
